A study of Mus musculus with 6 samples.

Results

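The genes described here are 39 antioxidant and NRF2 target genes, taken by gene symbol from the 22162 genes of the deposited table, and all 39 were found. NRF2 is the transcription factor encoded by Nfe2l2. The set holds the factor and its repressor Keap1, enzymes of haem, quinone, glutathione, thioredoxin and superoxide chemistry, glutathione transferases, carbonyl reductases, suppliers of NADPH, and the metal-binding proteins metallothionein and ferritin. Their levels were compared between mouse skin fibroblasts (MSFs) treated with tamoxifen (TAM) and MSFs treated with its solvent, ethanol (EtOH). The series has 6 poly(A) RNA libraries, 3 labelled EtOH and non-senescent and 3 labelled TAM and senescent. All 6 came from FVB/N cells of the FASST mouse, in which a collagen promoter, that of pro-alpha 2(I) collagen, drives a tamoxifen-activated Cre recombinase (Cre-ERT2). The Cre removes a stop cassette in front of the cell cycle inhibitor p27Kip1 and GFP at the ROSA26 locus. The EtOH cells carried both alleles too. By the study's methods the MSF line came from the dorsal skin of 1 female, was given 10 µM TAM for 48 h and was kept at 3% oxygen. Nothing states that the 3 libraries of a group were separate cultures, so p-values measure the spread between these libraries, which may be technical. TAM itself binds estrogen receptors, and no TAM-treated cells without the p27Kip1 allele are among these libraries. Effects of the drug and of the activated allele therefore cannot be told apart.

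NRF2 is held in the cytoplasm and marked for destruction by KEAP1, an adaptor of a ubiquitin ligase that senses electrophiles and oxidants through its cysteines. When KEAP1 is modified, NRF2 builds up, enters the nucleus, pairs with small MAF proteins and binds antioxidant response elements in front of its target genes. The regulation acts mainly on the NRF2 protein, so the level of Nfe2l2 mRNA need not follow that of its targets. In fibroblasts these enzymes limit superoxide, peroxides and reactive aldehydes, all of which have been studied as triggers and companions of cell senescence.

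The values are normalized counts, read counts per gene on a scale that the table does not state, and they summed to 14952367 to 17314953 per library. Values of a gene are always listed in the order of replicates 1, 2 and 3. Cdkn1b, the gene for p27Kip1, was at 1427, 3074 and 1853 normalized counts in the EtOH libraries and at 1699, 1519.8 and 1629.97 in the TAM libraries, so the 2 groups overlapped for the targeted gene. Its log2 difference was -0.32 ± 0.28 (SE) and was not called (limma adjusted p = 0.677), and whether the table's gene model counts reads of the transgene was not tested. EtOH and TAM below therefore mean libraries with that label. Fibroblast markers defined the cells, with 9 of 9 detected and summed levels of 1531130 to 1679930 normalized counts in EtOH and 684804 to 1127040 in TAM libraries. Of these 9, the collagens Col1a1, Col1a2 and Col3a1 and the proteoglycans Dcn and Lum were lower in all 3 TAM than in all 3 EtOH libraries, Thy1 was higher in all 3, and Pdgfra, Pdgfrb and Vim overlapped. The macrophage markers summed to 109 to 137 normalized counts in EtOH and 220.1 to 375 in TAM libraries. Csf1r and Lyz2 were higher in all 3 TAM than in all 3 EtOH libraries. Csf1r was at 75.7, 73.4 and 74.3 against 113, 226 and 90.6, and Lyz2 at 46.8, 35.25 and 62.9 against 103, 143 and 159. Itgam was also higher but at most at 3.11, Ptprc overlapped at low values and Emr1 was at 0 in all 6. Krt1, Lep, Ckm and Myh4, markers of keratinocytes, adipocytes and muscle, were at 0 in all 6. Of all markers checked only Kdr, an endothelial receptor, was called, lower and with the block alone (limma adjusted p = 0.0488), at 205, 68.7 and 116 normalized counts in the EtOH libraries and at 4.84, 7.53 and 14 in the TAM libraries. The part of other cell types in the results below was not tested, and in bulk RNA fewer cells of a type and less RNA per cell cannot be told apart.

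Promoter sequence, from 250 bases before to 50 bases after the start of transcription, was found in the RefSeq promoter table (GRCm38.p6) for 33 of the 39 genes. Sod3, Gsr, Gclc, Hmox1, Prdx6 and Gsta4 were not in it. The core of the antioxidant response element, TGACNNNGC on either strand, was in the promoters of 13 of these 33 genes and of 14.0% of the 27025 genes in the table. The 13 are Nfe2l2 itself, Gclm, Txnrd1, Srxn1, Prdx1, Gsta3, Gstm5, Mgst1, Sod1, G6pdx, Pgd, Me1 and Mt2. The 5 windows below are shown because they lie outside annotated exons. They cover 4 genes that were higher in TAM libraries in all 3 same-numbered pairs and Mt2, which was not. Each runs 5′ to 3′ on the plus strand of mm9, where it had 1 exact match, with the core in capitals and 30 bases on each side.
Prdx1: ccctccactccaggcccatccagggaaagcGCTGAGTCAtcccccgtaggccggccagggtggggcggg
Gclm: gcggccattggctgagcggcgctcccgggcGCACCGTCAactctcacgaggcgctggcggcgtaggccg
Txnrd1: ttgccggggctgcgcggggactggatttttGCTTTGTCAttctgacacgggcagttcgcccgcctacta
Gsta3: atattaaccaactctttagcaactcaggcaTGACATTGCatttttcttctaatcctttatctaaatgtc
Mt2: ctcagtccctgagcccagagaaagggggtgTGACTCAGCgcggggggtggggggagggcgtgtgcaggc
The windows are chr4:116358041-116358109, chr3:121948311-121948379, chr10:82321829-82321897, chr1:21230515-21230583 and chr8:96696409-96696477. Positions count from the RefSeq start, with -1 for the base just before it. The core spans -133 to -125 in Prdx1, -134 to -126 in Gclm, -92 to -84 in Txnrd1, -121 to -113 in Gsta3 and -79 to -71 in Mt2. It reads on the plus strand in Gsta3 and Mt2 and on the minus strand in Prdx1, Gclm and Txnrd1, whose capitals are its reverse complement. The windows of Prdx1, Gclm, Gsta3 and Mt2 overlap no annotated gene, while that of Txnrd1 lies in an intron of the longer Txnrd1 gene of the mm9 annotation. In Gclm the core overlaps a metal response element core, TGCGCNC, on the minus strand. A match of letters is a description and not a measured binding site.

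Among the 39 genes only Sod3, the extracellular superoxide dismutase, passed the test without the replicate block, and with the block Sod3 and Mgst1, a microsomal glutathione transferase, passed. Both were higher in TAM libraries. The test was limma's on log2(normalized counts + 1), with a gene called at a Benjamini-Hochberg adjusted p under 0.05 over the 11877 genes tested, and all 39 were tested. Of all genes tested, 0.244% were called without the block and 1.62% with it. Libraries of the same replicate number varied together across genes, and the block compares TAM with EtOH within each number. Another 10 members had an unadjusted p under 0.05, so that 8 were higher and 3 lower at that level, 28.2% of the members against 13.4% of all genes tested. With limma's library weights 6 members were called, Nqo1, Sod2, Mgst1, Prdx1 and Sod3 higher and G6pdx lower, against 6.25% of all genes.

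The groups did not overlap for 15 members, or 38.5%, against 20.6% of all genes tested. All 3 TAM libraries lay above all 3 EtOH libraries for 9 members, Nqo1, Gsr, Srxn1, Prdx1, Mgst1, Gsto1, Sod2, Sod3 and Me1, or 23.1% against 9.19% of all genes. All 3 lay below for 6 members, Gstm1, Gstm2, Gstm5, Gstp1, Sod1 and Gpx4, or 15.4% against 11.4%. Within same-numbered pairs TAM was higher in all 3 for 18 members, or 46.2%, against 18.3% of all genes, and lower in all 3 for 7 members, or 17.9%, against 23.6%. The median log2 difference, TAM minus EtOH, was 0.24 over the members and -0.03 over all genes tested. The members' median was 0.04 without EtOH replicate 3 and 0.11 without TAM replicate 1. In pairs 1, 2 and 3 the median over the members was 0.30, 0.02 and 0.47, so the shift towards TAM was near 0 in the second pair. The 13 members with the antioxidant response element core had a median log2 difference of 0.44 and a range of -0.44 to 2.91, with 4 all above and 2 all below. The 20 without it, Nqo1 among them, had a median of 0.02 and a range of -2.10 to 0.97, with 3 all above and 4 all below. The values of both sets overlapped widely. Only 250 bases before to 50 bases after the start were searched, so a core farther out would be missed. The 6 without a listed promoter had a median of 0.54.

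**Figure D1:**
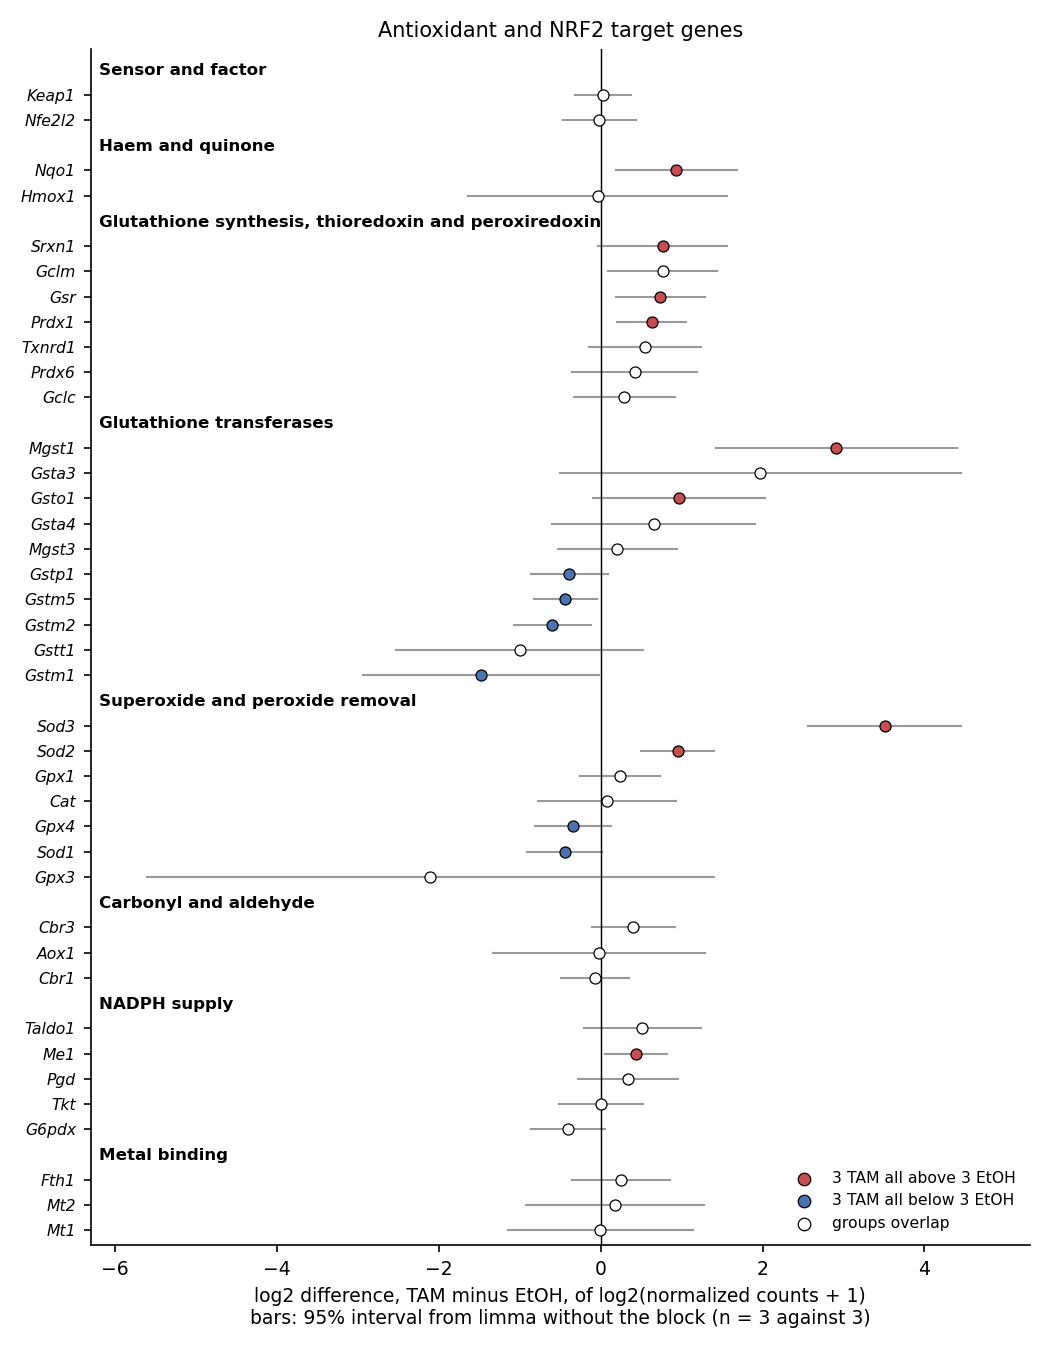
The plot gives the log2 difference, TAM minus EtOH, of each of the 39 genes by role on the x axis, with the 95% interval of the limma fit without the block. Red points mark the 9 genes whose 3 TAM libraries all lay above the 3 EtOH libraries, blue points the 6 whose TAM libraries all lay below, and white points genes whose groups overlap. Sod3 at 3.51 and Mgst1 at 2.91 lie farthest to the right, and Gpx3 at -2.10 farthest to the left with the widest interval.

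The factor and its repressor overlapped between groups. Of the classical targets Hmox1 and Nqo1, the first overlapped and the second did not. Nfe2l2 was at 3107, 3702 and 2553 normalized counts in the EtOH libraries and at 3220.03, 3115 and 2826 in the TAM libraries. Keap1 was at 1082, 1059.8 and 981 normalized counts in the EtOH libraries and at 1115, 1045 and 1029.9 in the TAM libraries. For both genes neither group stood above the other. The log2 difference was -0.02 ± 0.19 (SE) for Nfe2l2, with a 95% interval of -0.47 to 0.43, and 0.03 ± 0.15 (SE) for Keap1, with an interval of -0.32 to 0.38. The sign of the Nfe2l2 difference turned under other scalings. Hmox1, haem oxygenase, which breaks haem down to biliverdin, carbon monoxide and iron, was at 14841, 22875 and 3755 normalized counts in the EtOH libraries and at 18211, 7815 and 8299 in the TAM libraries. EtOH replicate 3 was the lowest of the 6 and EtOH replicate 2 the highest, a 6.09-fold range within that group. The interval of the log2 difference, -1.64 to 1.56, includes changes of more than 2-fold in either direction. Nqo1, which reduces quinones to hydroquinones (chr8:109912125-109927106, minus strand), was at 195, 427 and 228 normalized counts in the EtOH libraries and at 486, 612 and 452 in the TAM libraries. All 3 TAM libraries were above the highest EtOH library, replicate 2, though by little. The means were 284 ± 126 (SD, n = 3) in EtOH and 517 ± 83.9 (SD, n = 3) in TAM libraries. Its log2 difference of 0.94 ± 0.32 (SE) was not called (limma adjusted p = 0.274).

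All 7 genes of glutathione synthesis, thioredoxin and peroxiredoxins were higher in TAM than in EtOH libraries in every same-numbered pair, and none was called. Their log2 differences ran from 0.29 to 0.77 with a median of 0.63. All 7 were smaller without EtOH replicate 3, where Gclc had 0.04, Prdx6 0.17, Txnrd1 0.29, Srxn1 0.43, Gclm 0.53, and Gsr and Prdx1 both 0.61. Glutamate-cysteine ligase makes the first and rate-limiting step of glutathione synthesis, with Gclc as the catalytic and Gclm as the modifier subunit. Gclc was at 654, 829 and 435 normalized counts in the EtOH libraries and at 805, 838 and 645 in the TAM libraries. Gclm was at 668, 813 and 455 normalized counts in the EtOH libraries and at 1325, 1163 and 788 in the TAM libraries. Both overlapped between groups, Gclc widely and Gclm only because TAM replicate 3 lay under EtOH replicate 2. The log2 difference was 0.29 ± 0.26 (SE) for Gclc (limma adjusted p = 0.678) and 0.76 ± 0.29 (SE) for Gclm (limma adjusted p = 0.317). The ratio of Gclm to Gclc normalized counts was 1.02, 0.98 and 1.05 in EtOH libraries and 1.65, 1.39 and 1.22 in TAM libraries. Gclm mRNA was therefore higher relative to Gclc mRNA in each TAM library than in any EtOH library, and the subunit proteins were not measured here.

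Gsr, glutathione reductase, which turns glutathione disulphide back to glutathione, was at 459.8, 481 and 361 normalized counts in the EtOH libraries and at 953, 612 and 631 in the TAM libraries. The TAM libraries lay all above the EtOH libraries, with replicate 1 the highest. Srxn1, sulfiredoxin, which repairs overoxidized peroxiredoxins, was at 2036, 2094 and 1024 normalized counts in the EtOH libraries and at 3692, 2783 and 2095 in the TAM libraries. The lowest TAM library was just above the highest EtOH library. The log2 differences were 0.73 ± 0.23 (SE) for Gsr (limma adjusted p = 0.257) and 0.77 ± 0.34 (SE) for Srxn1 (limma adjusted p = 0.391). Txnrd1, the cytosolic thioredoxin reductase, was at 5489, 4780.2 and 2969 normalized counts in the EtOH libraries and at 7116, 7227 and 4744 in the TAM libraries. TAM replicate 3 lay under the 2 higher EtOH libraries, so the groups overlapped, with a log2 difference of 0.55 ± 0.29 (SE) and a limma adjusted p of 0.478. Prdx1, a major cytosolic peroxiredoxin (chr4:116358149-116373427, plus strand), was at 4915, 4886 and 4749 normalized counts in the EtOH libraries and at 6666, 8729 and 7243 in the TAM libraries. The EtOH libraries agreed within 1.03-fold and every TAM library was above them, for means of 4850.04 ± 88.7 (SD, n = 3) and 7546 ± 1064 (SD, n = 3). The log2 difference was 0.63 ± 0.18 (SE), and limma's adjusted p was 0.221. Of the Prdx1 transcript, 40.6% matched elsewhere in the genome, in the region of Gm7204. Prdx6, which reduces phospholipid hydroperoxides, overlapped between groups, with 2399 to 4034 normalized counts in EtOH and 2990.2 to 5879 in TAM libraries and a log2 difference of 0.42 ± 0.33 (SE).

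**Figure D2:**
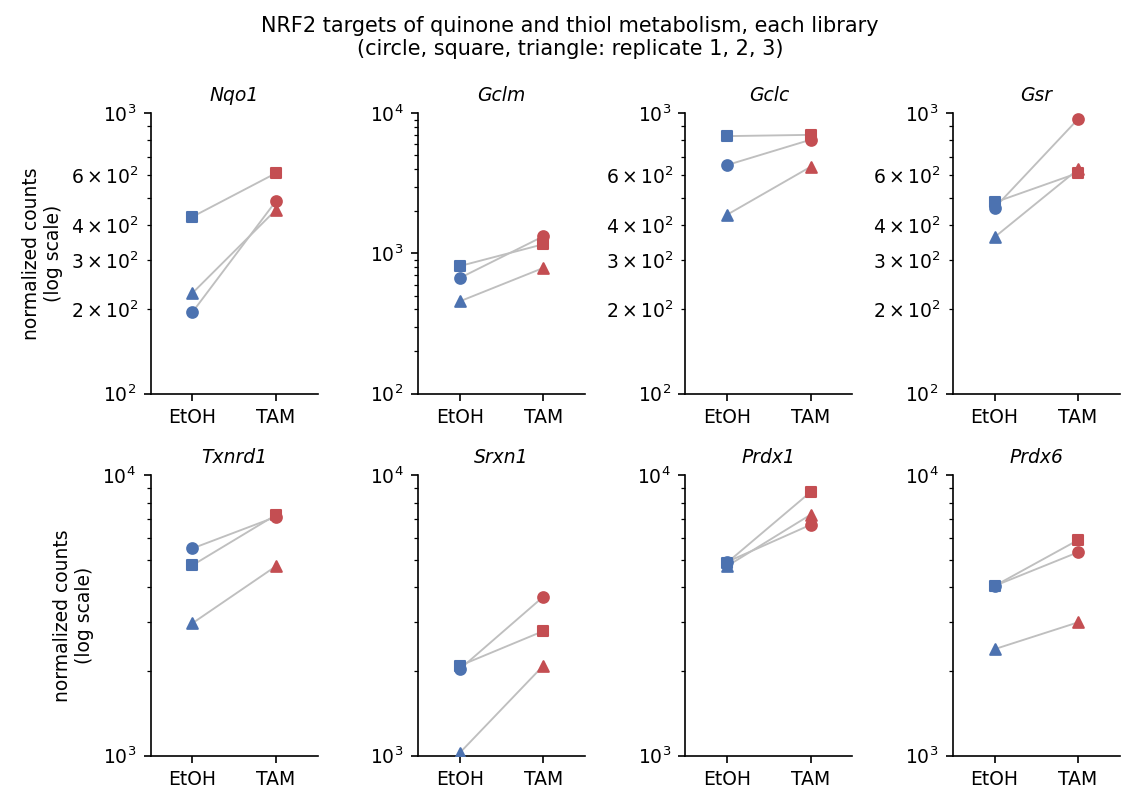
Each panel plots the normalized counts of a gene on a log y axis in the 3 EtOH and 3 TAM libraries, with grey lines joining libraries of the same replicate number. All lines rise from EtOH to TAM, those of Nqo1 included, and EtOH replicate 3 (triangle) is the lowest EtOH library for 7 of the 8 genes.

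The superoxide dismutases differed from each other. Sod3, the dismutase that is secreted and binds the matrix (ENSMUSG00000072941, chr5:52755185-52762644, plus strand, mm9), was at 320.4, 401 and 216 normalized counts in the EtOH libraries and at 1943, 5223 and 4054 in the TAM libraries. Every TAM library was above every EtOH library by a wide gap. The means were 312 ± 92.6 (SD, n = 3) in EtOH and 3740.1 ± 1662 (SD, n = 3) in TAM libraries, a 12.0-fold ratio, and the TAM libraries varied 2.69-fold among themselves. The log2 difference was 3.51 ± 0.40 (SE) with a 95% interval of 2.57 to 4.45 (limma adjusted p = 0.0374 without and 0.0237 with the block). By p Sod3 ranked 14 among the 11877 genes tested, and by log2 difference 43. Without the block the call was lost on leaving out any of the 6 libraries, with adjusted p of 0.0734 to 0.128 and log2 differences of 3.21 to 3.92. In those fits 0 to 15 of all genes were called. With the block Sod3 stayed called whichever library was left out, at adjusted p of 0.0049 to 0.0177.

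Sod2, the manganese dismutase of mitochondria (chr17:13200705-13210985, plus strand), was at 658, 538 and 612 normalized counts in the EtOH libraries and at 1373, 1191 and 964 in the TAM libraries. All TAM libraries were above all EtOH libraries, by a ratio of means of 1.95. Its log2 difference of 0.95 ± 0.19 (SE) was not called (limma adjusted p = 0.123). Of its transcript, 36.8% matched elsewhere in the genome, at 317 places. Sod1, the copper-zinc dismutase of the cytosol, was at 3229, 4760.2 and 3644 normalized counts in the EtOH libraries and at 3000.3, 2593 and 2858 in the TAM libraries. The TAM libraries lay all below the EtOH libraries, with a log2 difference of -0.44 ± 0.20 (SE) and a limma adjusted p of 0.394, and 94.7% of its transcript matched the copy Gm8566. Per kb of exon, Sod1 remained the most abundant dismutase transcript in all 6 libraries. Sod3 made 1.40 ± 0.34% (SD, n = 3) of the summed dismutase counts per kb in EtOH and 18.2 ± 7.82% in TAM libraries, and 9.81, 25.3 and 19.5% in TAM replicates 1, 2 and 3. Sod2 made 2.62 ± 0.72% and 5.40 ± 1.07%, and Sod1 96.0 ± 0.86% and 76.4 ± 7.19%. By these values Sod2 was above Sod3 in every EtOH library and Sod3 above Sod2 in every TAM library. The lengths counted all exon bases, also those of Sod1 and Sod2 that match elsewhere. How such bases change the shares and this order was not tested. The sum of the 3 was 5259.95 to 7622 normalized counts per kb in EtOH and 5548 to 5812 in TAM libraries, and it overlapped.

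**Figure D3:**
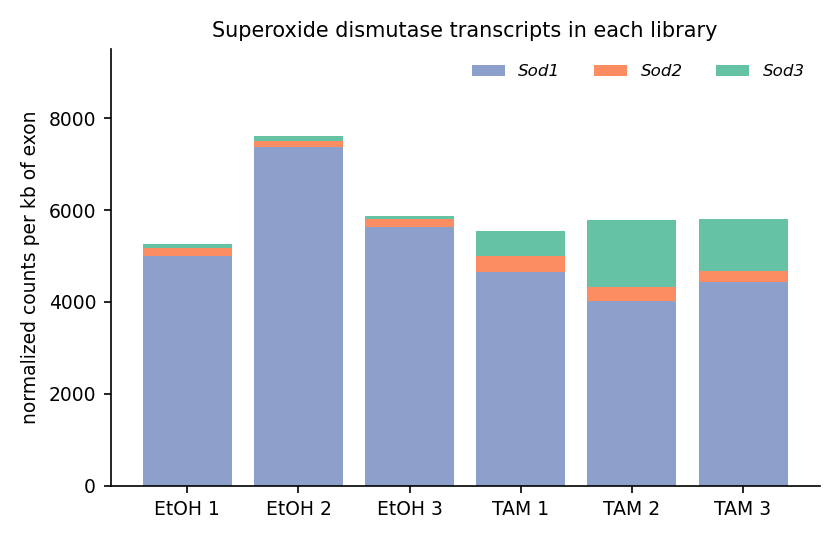
Stacked bars give the normalized counts per kb of exon (y axis, from 0) of Sod1, Sod2 and Sod3 in each of the 6 libraries. Sod3 is a thin band in the EtOH libraries, 60.5 to 112 per kb, and 544 to 1463 per kb in the TAM libraries, while the height of the bars overlaps between groups.

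Of the enzymes that remove hydrogen peroxide and lipid peroxides, none was called. Gpx4, which reduces phospholipid hydroperoxides in membranes, was at 7681, 7240.4 and 7545 normalized counts in the EtOH libraries and at 4897, 5852 and 7203 in the TAM libraries. The TAM libraries were all below the EtOH libraries, TAM replicate 3 only just, with a log2 difference of -0.34 ± 0.20 (SE) and a limma adjusted p of 0.526. A copy elsewhere in the genome matched 73.7% of its transcript. Gpx3, the secreted glutathione peroxidase (chr11:54715955-54723879, plus strand), was at 8363, 956 and 192 normalized counts in the EtOH libraries and at 1406, 138 and 98.3 in the TAM libraries. It varied 43.5-fold among the EtOH and 14.3-fold among the TAM libraries, and in both groups replicate 1 was the highest and replicate 3 the lowest. Within the pairs TAM was lower each time, by log2 differences of -2.57, -2.78 and -0.96. Its log2 difference of -2.10 ± 1.49 (SE) was not called (limma adjusted p = 0.594, and 0.0827 with the block), though with the block and without EtOH replicate 3 or TAM replicate 3 it was. Without EtOH replicate 1 and without the block its log2 difference was -0.68. Catalase (Cat) and Gpx1, the main cytosolic glutathione peroxidase, overlapped. Cat was at 2512 to 3310.2 normalized counts in EtOH and 1819.8 to 5014 in TAM libraries, and Gpx1 at 2529 to 3377 and 2778 to 4021. The 95% intervals of their log2 differences were -0.78 to 0.93 and -0.25 to 0.73.

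**Figure D4:**
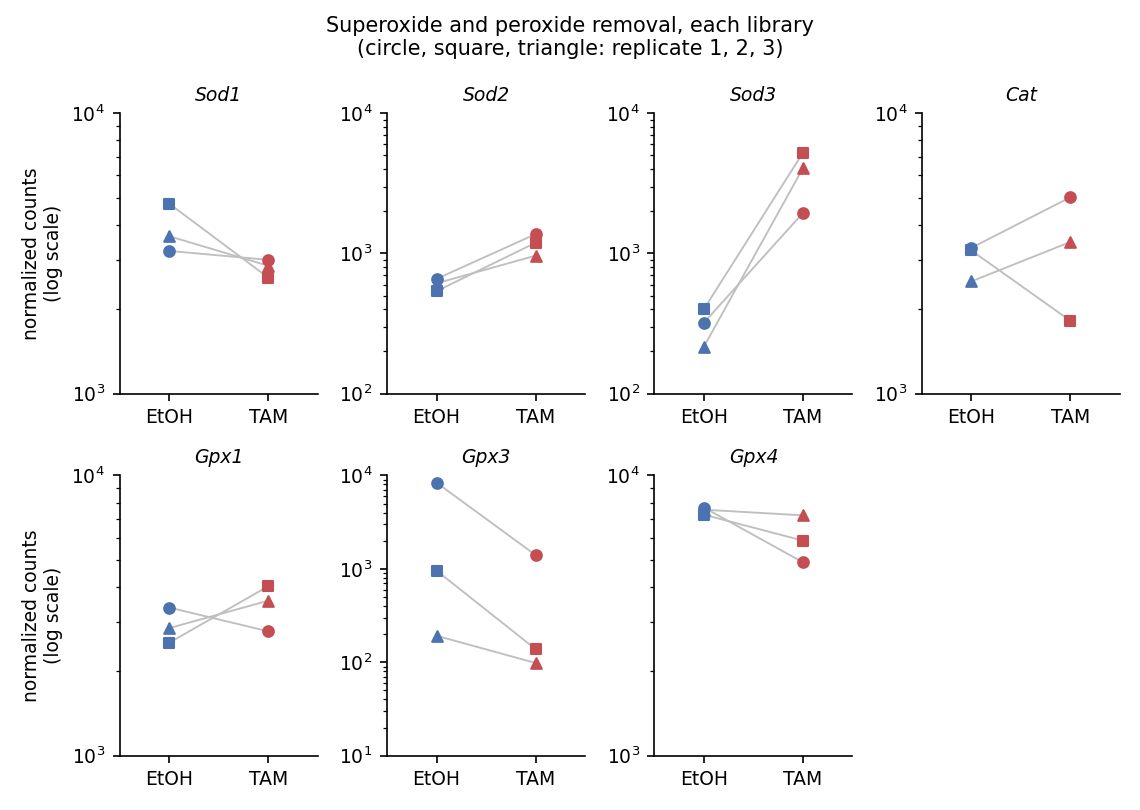
Each panel plots the normalized counts of a gene on a log y axis in the 3 EtOH and 3 TAM libraries, with lines joining libraries of the same replicate number. Sod3 and Sod2 lie higher and Sod1 and Gpx4 lower in all TAM libraries, and the Gpx3 lines run downwards from widely spread starting levels of 192 to 8363.

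The 10 glutathione transferases, which join glutathione to electrophiles, split by class, with 5 positive and 5 negative log2 differences. Mgst1, a membrane-bound transferase and peroxidase (ENSMUSG00000008540, chr6:138088837-138105276, plus strand, mm9), was at 106, 33.3 and 57.4 normalized counts in the EtOH libraries and at 944, 194 and 494 in the TAM libraries. All TAM libraries were above all EtOH libraries, and in both groups replicate 1 was the highest and replicate 2 the lowest. The means were 65.6 ± 37.1 (SD, n = 3) and 544 ± 377 (SD, n = 3), an 8.30-fold ratio. The log2 difference was 2.91 ± 0.63 (SE) and missed the threshold without the block (limma adjusted p = 0.146). Within the pairs it was 3.14, 2.51 and 3.08, and with the block Mgst1 was called (limma adjusted p = 0.018) and stayed called whichever library was left out, at adjusted p of 0.00354 to 0.0307. Mgst3, another microsomal member, overlapped, with a log2 difference of 0.20 ± 0.31 (SE).

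Gsto1, the omega class enzyme with thiol transferase activity (chr19:47929460-47939280, plus strand), was at 1966, 2102 and 1508 normalized counts in the EtOH libraries and at 2202, 7678 and 2756 in the TAM libraries. All TAM libraries were above all EtOH libraries, but TAM replicate 2 was far above the other TAM libraries. Its log2 difference was 0.97 ± 0.45 (SE) (limma adjusted p = 0.415) and 0.42 without TAM replicate 2. The alpha class members overlapped. Gsta4, which conjugates aldehydes from lipid peroxidation, was at 313 to 679 normalized counts in EtOH and 349 to 1418 in TAM libraries, and Gsta3 at 7.56 to 51.4 and 36.9 to 415. Gsta3 was the lowest member per kb of exon in EtOH libraries, and its pair differences were 2.99, 2.14 and 0.78 on the log2 scale. Neither was called, with limma adjusted p of 0.642 and 0.478. TAM replicate 1 was the highest library for both, and without it the log2 difference of Gsta3 went from 1.97 to 0.85 and that of Gsta4 from 0.66 to 0.11.

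The mu, pi and theta class members had negative log2 differences. Gstm1 (chr3:107815173-107820891, minus strand) was at 6684, 4083 and 6340.3 normalized counts in the EtOH libraries and at 3520.04, 685 and 3317 in the TAM libraries. Gstm2 was at 3582, 4382 and 3380.4 normalized counts in the EtOH libraries and at 2925, 2049 and 2549 in the TAM libraries. Gstm5 was at 669, 582 and 647 normalized counts in the EtOH libraries and at 506, 419.8 and 475 in the TAM libraries. For all 3 mu class genes every TAM library was below every EtOH library, and TAM replicate 2 was the lowest of the 6. Their log2 differences were -1.48 ± 0.62 (SE), -0.60 ± 0.20 (SE) and -0.44 ± 0.17 (SE), with limma adjusted p of 0.365, 0.275 and 0.318, and without TAM replicate 2 that of Gstm1 was -0.71. Gstp1, the pi class enzyme, was at 1448, 1571 and 1368 normalized counts in the EtOH libraries and at 1360.2, 879.7 and 1159 in the TAM libraries. TAM replicate 1 was only just under the lowest EtOH library, and the log2 difference was -0.39 ± 0.20 (SE) (limma adjusted p = 0.464). Gstt1, of the theta class, overlapped, and TAM replicate 2 at 61.1 was far under the other TAM libraries, which had 359 and 331. Its log2 difference had a 95% interval of -2.52 to 0.52 and was -0.18 without that library, and that of Gstp1 -0.22. With close copies, the gene these counts belong to is uncertain. Of the transcripts, 87.5% of Gstm1, 82.7% of Gstm2 and 93.4% of Gstp1 matched elsewhere, among the matches Gstm3 for Gstm1 and Gstp2 for Gstp1.

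The make-up of the 10 transferases was also taken per kb of exon. Gstm1 made 38.3 ± 7.69% (SD, n = 3) of their summed normalized counts per kb in EtOH and 19.8 ± 11.8% in TAM libraries. Gsto1 made 8.93 ± 1.71% and 25.9 ± 21.2%, where TAM replicate 2 alone had 50.1% and the other 2 TAM libraries 10.9 and 16.6%. Mgst1 made 0.30 ± 0.15% and 2.91 ± 1.67%. The mean shares of Gstm2, Gstm5 and Gstp1 lay within 4.17 to 21.4% in both groups. The sum of the 10 was 9936 to 11498 normalized counts per kb in EtOH and 7783 to 10232 in TAM libraries.

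**Figure D5:**
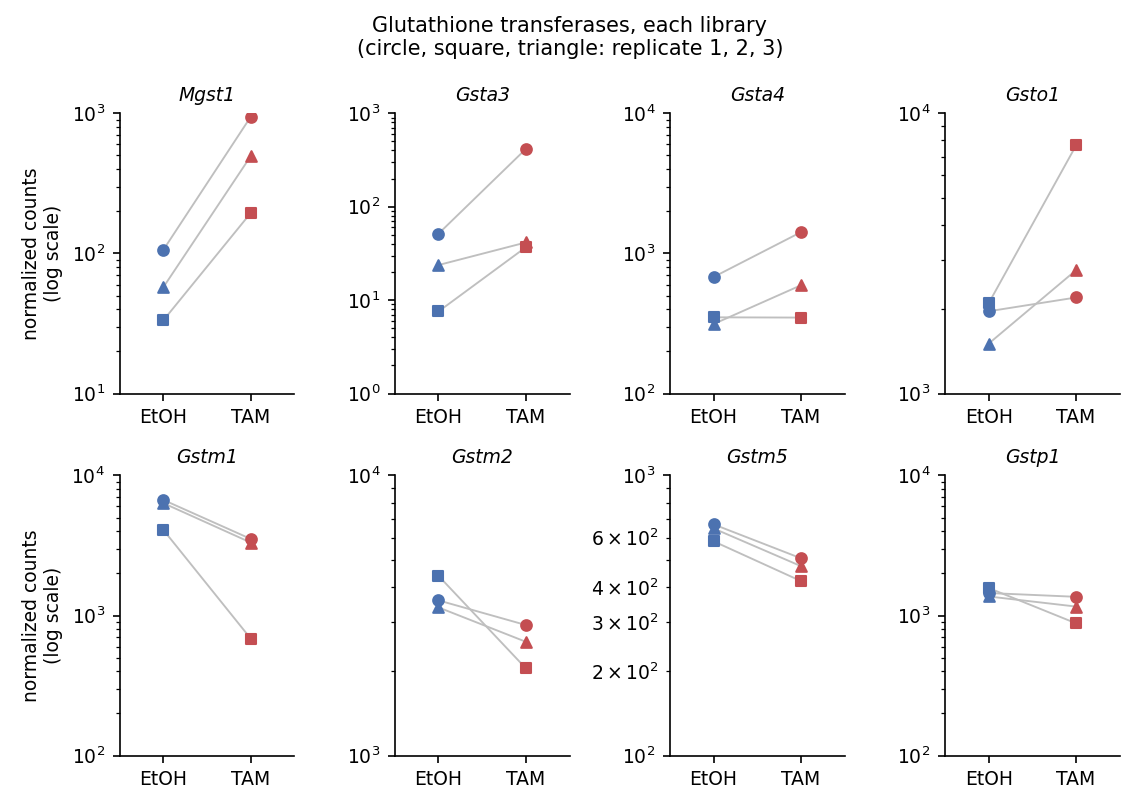
Each panel plots the normalized counts of a glutathione transferase on a log y axis in the 3 EtOH and 3 TAM libraries, with lines joining libraries of the same replicate number. The Mgst1 lines run upwards nearly in parallel from 33.3 to 106 in EtOH to 194 to 944 in TAM libraries, while all lines of Gstm1, Gstm2, Gstm5 and Gstp1 run downwards.

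NADPH feeds glutathione and thioredoxin reductase. Me1, the cytosolic malic enzyme, was at 1147, 1136 and 1065 normalized counts in the EtOH libraries and at 1491, 1729 and 1333 in the TAM libraries. All TAM libraries were above all EtOH libraries, with a log2 difference of 0.44 ± 0.16 (SE) and a limma adjusted p of 0.32, and 60.2% of its transcript matched elsewhere. In the pentose phosphate pathway, G6pdx, the entry enzyme, and Pgd, the next NADPH-forming enzyme, had opposite signs. G6pdx was at 1272 to 1561 normalized counts in EtOH and 928 to 1328 in TAM libraries, for a log2 difference of -0.40 ± 0.19 (SE), and Pgd at 3344 to 5654 and 4245 to 6386, for 0.34 ± 0.26 (SE). Of the G6pdx exons, 13.6% overlap Ikbkg on the other strand. Taldo1 and Tkt, transaldolase and transketolase of the pathway's non-oxidative arm, overlapped too. Taldo1 was higher in every pair, with a log2 difference of 0.51 ± 0.31 (SE), and that of Tkt was 0.01 ± 0.22 (SE) with a 95% interval of -0.51 to 0.52. The deposited locus of Tkt ends at 31362322 on chr14, while the annotated gene ends at 31387908, so the part of Tkt that was counted is uncertain. The deposited end also lay before the annotated end for Gsr, at 34784671 against 34808635, and for Srxn1, at 151935058 against 151937112. It did so too for Gpx3, at 54723078 against 54723879, and Pgd, at 148540816 against 148540880. The part counted is uncertain for these genes as well. None of the 5 was called.

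The carbonyl and metal-binding members overlapped in every case and none was called. Aox1, aldehyde oxidase, was at 653 to 765 normalized counts in EtOH and 259 to 1280.3 in TAM libraries. TAM replicate 2 was the lowest of the 6 for Aox1 and the other 2 TAM libraries were the highest. Of the carbonyl reductases, Cbr3 was higher in every pair, with a log2 difference of 0.40 ± 0.22 (SE), and Cbr1 had -0.07 ± 0.18 (SE) with a 95% interval of -0.49 to 0.35. The metallothioneins Mt1 and Mt2, which bind zinc and copper, varied together. Mt1 was at 5471 to 13844 and 4348 to 12026 and Mt2 at 3491 to 9544 and 3496 to 8363 normalized counts in EtOH and TAM libraries, while the ratio of Mt1 to Mt2 stayed between 1.24 and 1.82. EtOH replicate 2 was the highest library for both genes. Fth1, the ferritin heavy chain that stores iron, was the most abundant member per kb of exon, at 29268 to 35528 normalized counts in EtOH and 33607 to 47018 in TAM libraries, with a log2 difference of 0.25 ± 0.26 (SE). A metal response element core, TGCACNC or TGCGCNC on either strand, was in the promoters of Mt1, Mt2 and 7 other members, 9 of 33, and of 28.2% of all genes in the promoter table.

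Single libraries weighed on several of these values. TAM replicate 2 was the TAM library farthest from the other 2 for 19 of the 39 genes. Among the EtOH libraries, replicate 3 was farthest for 17 and replicate 2 for 16. EtOH replicate 3 was the lowest EtOH library for 26 genes, and TAM replicate 1 the highest TAM library for 25. With the block and without TAM replicate 2, 10 members were called, against 7.17% of all genes tested. They were Nqo1, Gclm, Gsr, Srxn1, Mgst1, Gsta4, Sod2, Sod3 and Mt2, all higher, and Gstm1, lower. Leaving out EtOH replicate 2 gave the same log2 differences and 10 calls too, since with the block either choice removes the second pair, so this count does not single out TAM replicate 2. TAM replicate 2 was also the library with the lowest sum of fibroblast markers, 684804 normalized counts, and with 1404 normalized counts of the muscle actin Acta1, against 21.1 to 56.3 in the other 5. Of that sum Col1a1, Col1a2 and Col3a1 held 301342, 178955 and 114898. Pdgfra, Dcn and Lum were also at their lowest in TAM replicate 2. Thy1 was at its highest there, at 4122, Vim was at its highest among the TAM libraries, at 64857, and Pdgfrb was within the range of the others. The part of these differences in the members' values was not tested.

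Other genes of the pathway were taken from a list of partners, transporters, enzymes and oxidant producers. Of 125 listed genes, 121 were in the table and 102 were tested. Without the block limma called 0 of them, while 6 with a positive and 9 with a negative difference had an unadjusted p below 0.05, a share near the 13.4% of all genes. With limma's library weights 6 of the 102 were called, near the 6.25% of all genes. With the block 3 were called, all lower, against 1.62% of all genes. All 3 TAM libraries lay above all 3 EtOH libraries for 10 of the 102 and below for 16, against the 9.19% and 11.4% of all genes given above, and their median log2 difference was -0.04. Akr1c14, an aldo-keto reductase of steroids, was at 14418, 6695 and 22353 normalized counts in the EtOH libraries and at 1926, 344 and 5138 in the TAM libraries. Ugt1a6b, which joins glucuronic acid to phenols, was at 546, 336 and 569.9 normalized counts in the EtOH libraries and at 211, 64.5 and 180.5 in the TAM libraries. Both had all TAM libraries below all EtOH libraries, with TAM replicate 2 lowest. Mthfd1l, a mitochondrial enzyme of folate metabolism, was at 587, 1879 and 461 normalized counts in the EtOH libraries and at 205, 693 and 224 in the TAM libraries. It overlapped between groups, since replicate 2 was the highest library in both, but was lower in each pair. The log2 differences of these 3 genes were -3.10 ± 0.94 (SE), -1.79 ± 0.47 (SE) and -1.33 ± 0.65 (SE), with limma adjusted p of 0.0451, 0.0469 and 0.0461 with the block and 0.246, 0.194 and 0.438 without it.

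The remaining pathway genes named here did not overlap between groups and were called neither without nor with the block. Among NRF2's partners and repressors these were Cul3, the scaffold of the KEAP1 ligase, with a log2 difference of 0.31 ± 0.16 (SE), and Nfe2l1, which encodes the related factor NRF1, with 0.26 ± 0.17 (SE). Txnip, which binds and inhibits thioredoxin, was at 6582, 13287 and 8764 normalized counts in the EtOH libraries and at 1769, 2591 and 4555 in the TAM libraries. Each TAM library was below each EtOH library, for a log2 difference of -1.73 ± 0.40 (SE) (limma adjusted p = 0.157). Prdx4, the peroxiredoxin of the endoplasmic reticulum, had -0.72 ± 0.21 (SE). Among transporters and glutathione breakdown, Ggt5, a gamma-glutamyl transferase, had -2.40 ± 0.80 (SE) and the conjugate exporter Abcc3 0.94 ± 0.33 (SE). The transferases Gstm4 and Gstp2, close relatives of the mu and pi class members, had -0.66 ± 0.23 (SE) and -0.61 ± 0.34 (SE). In mitochondria, Idh2, an NADPH-forming isocitrate dehydrogenase, was at 1369, 1564 and 1362 normalized counts in the EtOH libraries and at 722, 388 and 556 in the TAM libraries. The groups stood well apart, and the log2 difference was -1.41 ± 0.25 (SE) (limma adjusted p = 0.0915), while Me3, the mitochondrial malic enzyme, had -1.01 ± 0.47 (SE). The oxidant producers Nox4, an NADPH oxidase that releases hydrogen peroxide, and Maoa, a monoamine oxidase, had 1.04 ± 0.33 (SE) and 0.77 ± 0.25 (SE).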

How the data were processed

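Poly(A) RNA of 6 MSF libraries, 3 EtOH and 3 TAM, was analysed as labelled. The authors mapped reads to mm9 with TopHat, assigned them to genes with htseq-count of HTSeq and tested them with edgeR after TMM scaling, with versions not given in the sources used here. The values they deposited are normalized counts, treated here as a signal, since the scaling is not stated, the values are not whole numbers and whole reads could not be recovered for all libraries. The depth in reads is therefore unknown, and no counting intervals were computed. The table lists Ensembl identifiers, while the methods name RefSeq genes, and the strand setting of the counting is not given in the sources used here.

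Genes with at least 1 c.p.m., taken as 16.2 normalized counts, in at least 3 of 6 libraries were tested with limma 3.58.1 in R 4.3.3 on log2(value + 1) with an intensity trend, two-sided, with Benjamini-Hochberg adjustment over all genes tested. Of the members, 38 reached that level in all 6 libraries and Gsta3 in 5. Differences are on the log2(value + 1) scale, which understates the change of low genes. With 3 libraries against 3, an exact permutation test cannot go below p = 0.1, so none was used. The replicate numbers come from the titles. Deviations from the group mean correlated across genes at 0.24, 0.29 and 0.42 between same-numbered libraries and at -0.31 to 0.04 between others, so the numbers were taken to pair the libraries and a fit with the replicate number as a block was run beside the one without. The fit was checked on simulated data in which all genes had the same spread and the changed genes a log2 change of 3 in size. All members but Sod3 had smaller differences, and their spread varied, so the check does not give the power for them.

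The members and gene lists were chosen with earlier results of these data known. All members are named. Values per library are given for members called in either fit, members whose groups do not overlap, and 8 genes set by name (Nfe2l2, Keap1, Hmox1, Nqo1, Gclc, Gclm, Txnrd1 and Srxn1). Of the other pathway genes, those called in either fit were named, and up to 2 in each group with the largest log2 difference among those that do not overlap. Transcripts were matched to mm9 with BLAST 2.17.0 at 95% identity over at least 100 bases, and exons were taken from the mm9 annotation. Alternatives were pseudocounts of 0.1 and 10, no filter, library-sum and median-ratio scaling, the block, library weights, floored group means and leaving out each library. Fits that leave out a library or rescale with the block were added after seeing the data. Python 3.11.15 with pandas 2.3.3, and matplotlib 3.10.9 for plots, did the rest. The tissue, protein and tumour experiments were not analysed here.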

Additional observations from a re-analysis of the deposited data

How the results depend on the processing

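With pseudocounts of 0.1 and 10, no filter on low values, and library-sum or median-ratio scaling, 1 member was called as in the reported fit. The count was 2 with the replicate block and 6 with library weights and, without the block, 0 on leaving out any library. With the block it was 2 to 10 when a library was left out, the 10 without EtOH replicate 2 or TAM replicate 2. Over all genes the count was 17 with no filter, 192 with the replicate block and 742 with library weights, and 0 to 15 on leaving out a library. Of the other pathway genes, 3 were called with the replicate block and 6 with library weights. Over all 6 libraries, the pairing changed no call given in the text beside those of Mgst1, Kdr and these 3. With a library left out, the calls of Sod3, Mgst1, Gpx3 and the 10 members held with the block only. The Sod3 log2 difference was 3.21 to 3.92 on leaving out a library. Library-sum scaling raised the median log2 difference of all genes by 0.11 and turned the sign of Nfe2l2 to 0.10, Hmox1 to 0.0755, Aox1 to 0.0888, Cbr1 to 0.0408 and Mt1 to 0.11. Median-ratio scaling turned Nfe2l2 to 0.0018 and Mt1 to 0.014. Library weights turned Nfe2l2 to 0.0206, Hmox1 to 0.26, Aox1 to 0.51 and Mt1 to 0.63. On leaving out a library, the log2 difference ranged over -0.15 to 0.11 for Nfe2l2, -0.0117 to 0.0589 for Keap1, -0.80 to 0.50 for Hmox1, -0.25 to 0.48 for Cat, -0.47 to 0.68 for Aox1, -0.17 to 0.00539 for Cbr1, -0.15 to 0.16 for Tkt, -0.31 to 0.46 for Mt1 and -0.10 to 0.62 for Mt2. These 9 members were the ones whose sign turned under any alternative without the block, and none of them was called in the reported fit. The cause of these changes was not tested. The count of members that do not overlap was 14 to 20 and the members' median log2 difference 0.04 to 0.36 under every alternative run for them, the lowest median without EtOH replicate 3. With 3 libraries a group and no read totals, a missed threshold does not show that a gene was unchanged.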
